A study of Mus musculus with 6 samples.

Results

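The T cell receptor reaches the cell interior through the CD3 chains, and on CD8 T cells it is assisted by the CD8 coreceptor. RNA for 10 genes of this surface machinery was compared between naive CD8 T cells lacking CD103 and WT cells: the CD3 chains (Cd3e, Cd3d, Cd3g, Cd247), the coreceptors (Cd8a, Cd8b1, Cd4) and the accessory surface proteins Cd2, Thy1 and Ptprc. The genes were taken by symbol from a table of 55450 genes. Each symbol matched 1 row, and all 10 were among the 13470 genes with enough counts to be tested. CD103 is an integrin chain (alpha E) and the product of Itgae. The CD103KO group (Itgae-/-, 3 libraries) and the WT group (C57BL/6, 3 libraries) hold Ly6C-CXCR3- naive CD8 T cells sorted from mouse lymph nodes. The sources used here do not give the strain background of the CD103KO mice or the age, sex and number of mice per library. The p-values therefore cover the spread between these libraries, which may in part be technical.

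As background, the antigen-binding T cell receptor chains have short tails that cannot signal by themselves. CD3 epsilon pairs with CD3 gamma or CD3 delta, the zeta chain encoded by Cd247 pairs with itself, and the tails of all of them carry tyrosine motifs that the kinase Lck phosphorylates. The CD8 alpha and beta chains form the heterodimer typical of conventional CD8 T cells, which binds MHC class I and brings Lck to the receptor through the alpha tail. CD4 does the same for MHC class II on helper T cells and is silenced in the CD8 lineage. CD45, the phosphatase encoded by Ptprc, sets how active Lck is, CD2 is an adhesion receptor that in mice binds CD48, and Thy1 is a lipid-anchored glycoprotein of mouse T cells.

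The 3 genes Cd3e, Cd3d and Cd3g lie side by side on chromosome 9, and the bases upstream of their starts are shown because their chain balance is the closest comparison made here and Cd3g was the member whose groups separated. Cd3g (chr9:44969572-44980431, minus strand) and Cd3d (chr9:44981786-44987339, plus strand) are transcribed away from each other from starts 1355 bases apart, and Cd3e (chr9:44998740-45009627, minus strand) follows 11.4 kb beyond Cd3d (GRCm38). The 250 bases before each RefSeq start (GRCm38.p6) are given 5′ to 3′ on the gene's own strand, with motif matches on either strand in capitals. The motif capitalised for Cd3d and Cd3e is an ETS factor core, AGGAAG. For Cd3g it is a core bound by GATA factors, with the letters AGATAA. The windows are chr9:44980432-44980681 for Cd3g, chr9:44981536-44981785 for Cd3d and chr9:45009612-45009861 for Cd3e.
Cd3g: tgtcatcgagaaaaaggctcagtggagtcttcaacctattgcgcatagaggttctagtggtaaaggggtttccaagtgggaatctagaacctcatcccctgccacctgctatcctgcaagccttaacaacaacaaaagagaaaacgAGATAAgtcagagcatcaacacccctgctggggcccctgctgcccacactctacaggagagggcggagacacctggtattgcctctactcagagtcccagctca
Cd3d: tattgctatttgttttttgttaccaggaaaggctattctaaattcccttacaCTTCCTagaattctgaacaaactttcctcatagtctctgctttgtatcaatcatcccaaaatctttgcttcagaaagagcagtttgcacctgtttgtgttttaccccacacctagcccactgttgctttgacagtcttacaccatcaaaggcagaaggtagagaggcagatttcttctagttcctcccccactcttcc
Cd3e: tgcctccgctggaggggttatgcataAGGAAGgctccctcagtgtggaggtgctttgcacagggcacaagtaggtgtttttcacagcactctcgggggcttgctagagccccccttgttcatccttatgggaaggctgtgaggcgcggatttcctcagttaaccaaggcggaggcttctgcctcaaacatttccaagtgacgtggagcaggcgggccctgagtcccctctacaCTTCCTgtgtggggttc
The ETS core matched 1 time upstream of Cd3d and 2 times upstream of Cd3e, and 29.5% of all 32851 promoter windows of this length held it. The GATA core matched 1 time upstream of Cd3g, against 9.99% of all windows. An E-box (CANNTG), not capitalised here, matched 3 times for Cd3g and 1 time each for Cd3d and Cd3e, against 66.2% of all windows. The RUNX core TGTGGT and the TATA box TATAAA had no match in these 3 windows, where 14% and 12.4% of all windows hold them. A match in letters is not a measured binding site.

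Total counts ran from 68292475 to 76044311 per CD103KO library and from 74438908 to 94347034 per WT library. Levels are in CPM, counts scaled to library size after TMM normalization across libraries. The targeted gene Itgae was at 67.9, 67.9 and 61.1 CPM in CD103KO replicates 1, 2 and 3, against 491, 495 and 460 CPM in WT replicates 1, 2 and 3. Itgae lies on chromosome 11, which holds none of the 10 genes. WT replicates 1 and 2 had 5012 and 7628 counts of Xist, the X-inactivation RNA, and 0 of the Y-linked Ddx3y, whereas the other 4 libraries had 0 to 2 counts of Xist and 3612 to 4466 of Ddx3y. WT replicate 3 thus stands with the CD103KO libraries in these genes, and fits with a term for Xist reads compare the CD103KO libraries with it alone.

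None of the 10 genes passed the test for a difference between the groups. With edgeR's quasi-likelihood test, 0 of 10 passed an adjusted p of 0.05, where 0.223% of all 13470 tested genes passed. With DESeq2 and limma-voom the count was also 0 of 10, against 1.02% and 0.215% of the genes tested. At an unadjusted p under 0.05 there was 1, Cd3g, against 8.73% of all genes. The 9 genes other than Cd4 were abundant, with 26295 to 206997 counts in each library. Their log2 fold changes (CD103KO over WT) lay between 0.0036 and 0.099, with a median absolute value of 0.025 against 0.0496 over the 1912 tested genes averaging at least 100 CPM. For these 9, the 95% intervals of the fold change, not adjusted for their number, ran at the widest from 0.912 to 1.15. In bulk RNA, fewer cells of a type and less RNA per cell cannot be told apart.

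**Figure D1:**
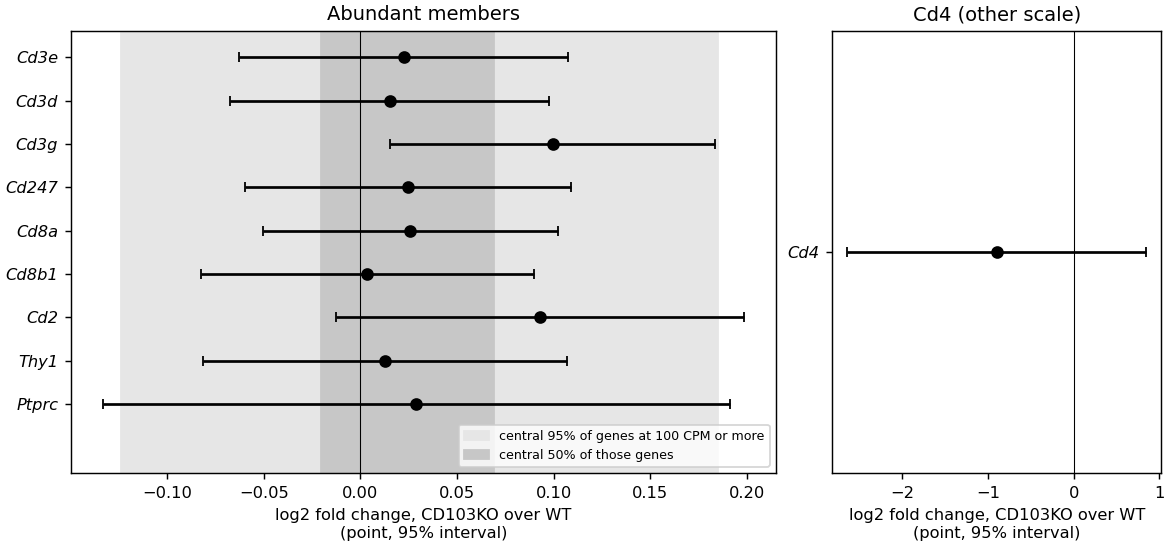
Log2 fold change of each gene, CD103KO over WT, with its 95% interval from edgeR's quasi-likelihood fit (3 libraries per group); Cd4 has its own axis. Grey bands mark the central 50% and 95% of the 1912 tested genes averaging at least 100 CPM, and all 9 abundant members have estimates between 0.0036 and 0.099.

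Cd3e, the epsilon chain found in both CD3 pairs, was at 419, 414 and 408 CPM in CD103KO replicates 1, 2 and 3, against 399, 402 and 421 CPM in WT replicates 1, 2 and 3. The groups overlapped, because WT replicate 3 was above every CD103KO library. The estimate was 1.57% higher in CD103KO, with a 95% interval of -4.26% to 7.74% (adjusted p = 0.895, edgeR). Cd3d, the delta chain, was at 585, 615 and 597 CPM in CD103KO, against 600.03, 582 and 596 CPM in WT. CD103KO replicate 1 was the lowest library of its group for Cd3d and the highest for Cd3e, and the groups overlapped. The Cd3d difference was 1.05% (95% interval -4.57% to 7.01%, adjusted p = 0.934, edgeR).

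Cd3g, the gamma chain, was at 781, 802 and 795 CPM in CD103KO, against 734, 721 and 764 CPM in WT. Every CD103KO library was above every WT library, and Cd3g was the single member whose groups did not overlap, where 14.2% of all tested genes had groups that did not overlap and 6.82% did so with CD103KO higher. The mean was 793 ± 10.7 CPM in CD103KO and 739.9 ± 21.8 CPM in WT (SD, n = 3 each). The log2 fold change was 0.099 (SE 0.037), or 7.14% with a 95% interval of 1.07% to 13.6%. It did not pass over all genes (adjusted p = 0.497, edgeR, and 0.43 with DESeq2). The unadjusted p, 0.0254, was the smallest of the 10 and ranked 688 among the 13470 tested genes.

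Cd247, the zeta chain with several tyrosine motifs in its tail (chr1:165788681-165877277, plus strand), was at 381, 386 and 379 CPM in CD103KO, against 374, 365 and 388 CPM in WT. WT replicate 3 was again the highest library of all 6. The difference was 1.72% (95% interval -4.06% to 7.85%, adjusted p = 0.879, edgeR). Cd247 was the member with counts that were not whole, and its exons share 3007 bases with exons of Pou2f1, an octamer-binding transcription factor gene on the opposite strand. Whether the counting used strand is not given in the sources used here, so the split of reads between these genes is uncertain. Pou2f1 had 3577, 3237 and 3392 counts in CD103KO, against 3393, 4470 and 3615 in WT, with a log2 fold change of 0.037 (SE 0.049). Cd247 and Pou2f1 summed to 429 ± 4.72 CPM in CD103KO and 422 ± 10.7 CPM in WT (SD, n = 3 each), so the sum differed by less than the WT spread too. Cd247 also shares 206 exon bases with Gm16565, a transcript on the same strand, so strand would not separate reads in those bases. Gm16565 had 84, 44 and 73 counts in CD103KO, against 112, 96 and 72 in WT. Cd3e shares 135 exon bases with the antisense transcript Gm48719, which had 1 to 4 counts per library. No other member matched another gene's transcripts at 90% identity over 300 bases.

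**Figure D2:**
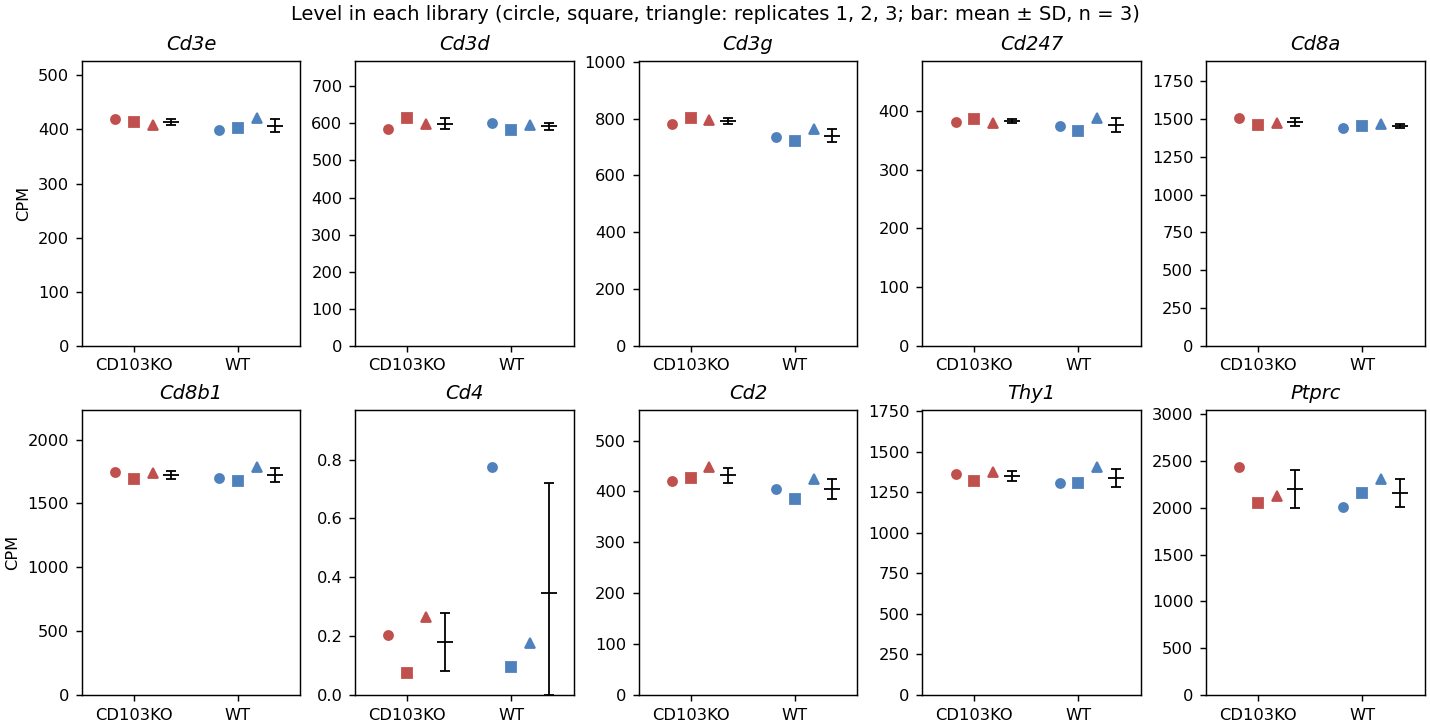
CPM of each gene in each library, with CD103KO left of WT and a separate axis from 0 for every gene; markers are replicates 1 to 3 and bars the mean ± SD (n = 3), cut at 0 for Cd4. Only Cd3g shows all 3 CD103KO libraries above all 3 WT libraries, and for Cd4 WT replicate 1 stands at 0.775 CPM above the other 5 libraries.

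The CD8 chains were among the most abundant members. Cd8a (chr6:71373427-71379173, plus strand), whose product carries the Lck-binding tail, was at 1506, 1458 and 1471 CPM in CD103KO, against 1438, 1455 and 1464 CPM in WT. The groups overlapped only through CD103KO replicate 2, which lay below WT replicate 3. The difference was 1.81% (95% interval -3.44% to 7.35%, adjusted p = 0.859, edgeR). Cd8b1 (chr6:71322788-71337494, plus strand), whose product completes the heterodimer, was at 1749, 1690.0 and 1739 CPM in CD103KO, against 1702, 1678.5 and 1784 CPM in WT. WT libraries were both lowest and highest. Of the 10, Cd8b1 had the smallest difference, 0.252% (95% interval -5.56% to 6.42%, adjusted p = 0.985, edgeR). Cd8a and Cd8b1 lie on the same strand with 35.9 kb between them.

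Cd4 (chr6:124864692-124888221, minus strand), the coreceptor of helper T cells, was close to absent. It had 15, 5 and 20 counts in CD103KO replicates 1, 2 and 3, against 58, 9 and 14 counts in WT replicates 1, 2 and 3. In CPM these were 0.204, 0.0734 and 0.265 in CD103KO, against 0.775, 0.094 and 0.176 in WT. WT replicate 1 stood apart: its exact 95% Poisson interval, 44.04 to 74.98 counts, which covers counting error only, began above the highest upper bound of the other libraries, 30.9 counts in CD103KO replicate 3. Per 10000 counts of Cd8a there were 1.36, 0.503 and 1.80 counts of Cd4 in CD103KO, against 5.39, 0.646 and 1.20 in WT. The log2 fold change of -0.90 (SE 0.77) did not pass (adjusted p = 0.774, edgeR), and its 95% interval of -2.64 to 0.85 covers changes in both directions. Without WT replicate 1 it was 0.45 (SE 0.61), so its direction rested on that library. No other marker in the list of CD4 and regulatory T cells placed WT replicate 1 as far above the rest. Foxp3, the regulatory T cell factor, was at 1.99, 1.67 and 2.33 CPM in CD103KO, against 1.62, 1.65 and 2.13 CPM in WT, and Zbtb7b, the CD4 lineage factor, at 0.477, 0.602 and 0.833 CPM in CD103KO, against 0.467, 0.47 and 0.629 CPM in WT. WT replicate 1 was the lowest of the 6 libraries for both, for Zbtb7b barely below WT replicate 2. For Ikzf4 it was the highest, at 5.30 CPM against 5.22 CPM in CD103KO replicate 1. The 7 markers of that list summed to 14.2 to 17.3 CPM in CD103KO and 13.9 to 15.9 CPM in WT, and 0 of 7 passed (edgeR, DESeq2, and at an unadjusted p under 0.05).

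Cd2 (chr3:101275899-101287939, minus strand) was at 420.5, 426 and 448 CPM in CD103KO, against 404, 385 and 425 CPM in WT. The groups overlapped through WT replicate 3, which was above CD103KO replicate 1. Its difference of 6.66% (95% interval -0.86% to 14.7%) was next in size to that of Cd3g among the abundant members and did not pass (adjusted p = 0.624, edgeR). Thy1 (chr9:44043384-44048579, plus strand), 921 kb from Cd3g, was at 1363, 1318 and 1378 CPM in CD103KO, against 1308, 1309 and 1405 CPM in WT, a difference of 0.903% (95% interval -5.48% to 7.71%, adjusted p = 0.953, edgeR). WT replicate 3 was the highest and the other WT libraries the lowest. Ptprc (chr1:138062861-138175708, minus strand) was at 2435, 2049 and 2125 CPM in CD103KO, against 2010.45, 2162 and 2305 CPM in WT. It varied most among the abundant members, with a coefficient of variation of 9.29% in CD103KO and 6.82% in WT, and the groups overlapped widely (difference 2.03%, 95% interval -8.82% to 14.2%, adjusted p = 0.936, edgeR). Counts are per gene, so the CD45 splice forms that mark naive and memory cells cannot be separated.

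The balance of chains within a library does not depend on library size and was tested by 5 ratios of counts, with p-values adjusted over the 5. The Cd8b1 to Cd8a ratio was 1.161, 1.159 and 1.182 in CD103KO, against 1.184, 1.153 and 1.219 in WT (exact two-sided permutation p = 0.6, adjusted 0.9). The 2 coreceptor chains thus kept overlapping ratios, with means of 1.17 ± 0.0129 in CD103KO and 1.19 ± 0.0328 in WT (SD, n = 3 each). The Cd3g to Cd3e ratio was 1.86, 1.94 and 1.95 in CD103KO, against 1.84, 1.79 and 1.81 in WT. These groups did not overlap, with a log2 difference of 0.077 and an exact two-sided permutation p of 0.1, adjusted 0.5. An exact p of 0.1 is the smallest that 3 against 3 libraries can give, so no ratio could have passed. The Cd3d to Cd3e ratio averaged 1.45 ± 0.046 in CD103KO and 1.46 ± 0.0453 in WT (exact permutation p = 0.8, n = 3 each). The Cd247 to Cd3e ratio averaged 0.924 ± 0.0121 in CD103KO and 0.923 ± 0.015 in WT (exact permutation p = 0.9, n = 3 each). The Cd8a to Cd3e ratio averaged 3.57 ± 0.0479 in CD103KO and 3.57 ± 0.0797 in WT (exact permutation p = 0.9, n = 3 each), with an adjusted p of 0.9 for all of these last 3. These are ratios of counts, which follow transcript length, and not of proteins.

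**Figure D3:**
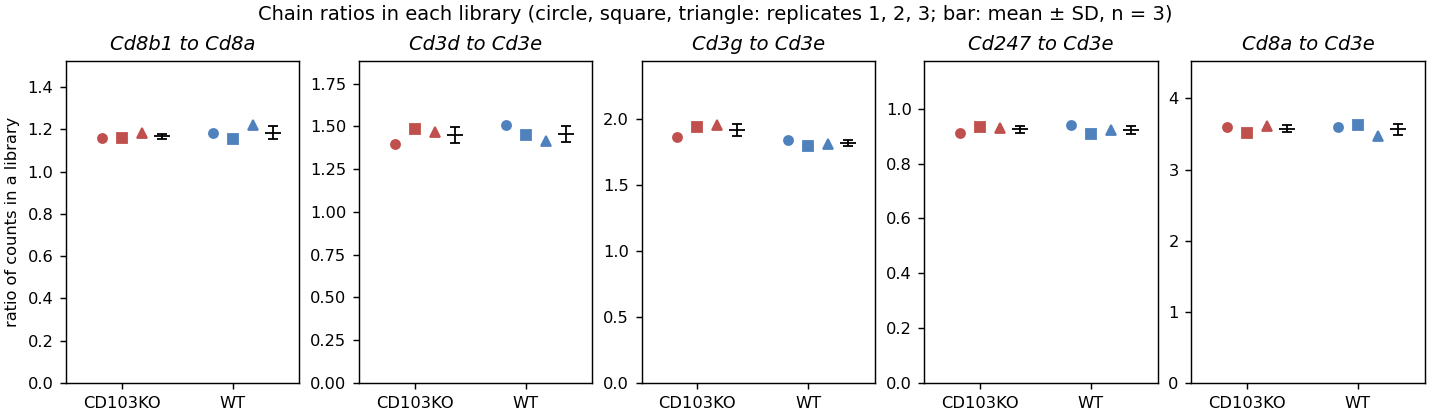
Ratio of counts of the named genes within each library, CD103KO left of WT, each axis from 0, with markers for replicates 1 to 3 and bars for the mean ± SD (n = 3). The Cd3g to Cd3e ratio is at 1.86 to 1.95 in CD103KO and 1.79 to 1.84 in WT, and the other 4 ratios overlap.

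Levels of different genes were compared per kilobase of annotated exons (CPM per kb, mean ± SD over all 6 libraries). Cd8b1 led at 1162 ± 27.3, rank 50 among 13470 tested genes. It was followed by Thy1 at 449.7 ± 13.7, Cd8a at 403 ± 6.32 and Cd3d at 328 ± 6.41. Cd2 at 240.2 ± 12.3 and Cd3g at 234 ± 10.02 came next and differed by less than either spread. Ptprc at 119 ± 8.81, Cd3e at 101 ± 2.25 and Cd247 at 71.1 ± 1.55 were lower still. Cd4 was last at 0.0656 ± 0.0644, rank 12872 of 13470. The order depended in part on the length used, since the union of exons covers all annotated transcripts of a gene. It was 18313 bases for Ptprc, against 5074 for its longest coding transcript. Per kilobase of the longest coding transcript, Cd8b1 stayed at rank 1 among the members, Cd3g took rank 3 at 749 ± 32.01, and Cd3e, Cd247 and Cd4 stayed at ranks 8, 9 and 10. On that scale Cd3d (368 ± 7.19) and Cd2 (363 ± 18.5) differed by less than either spread, and Thy1 (776 ± 23.6) and Cd3g by less than the spread of Cd3g but more than that of Thy1.

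**Figure D4:**
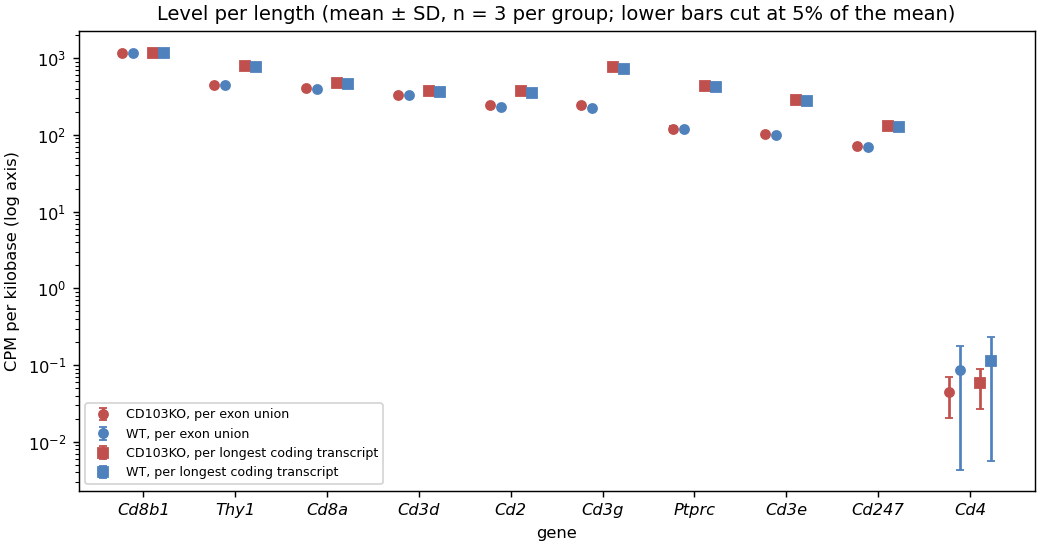
CPM per kilobase on a log axis for each gene, mean ± SD (n = 3 per group), per union of exons (circles) and per longest coding transcript (squares), with CD103KO left of WT in each pair. Cd8b1 is highest and Cd4 lowest on both, with Cd4 below 1 CPM per kb.

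The 10 genes together held 0.966%, 0.913% and 0.929% of all counts in CD103KO replicates 1, 2 and 3, against 0.902%, 0.919% and 0.94% in WT replicates 1, 2 and 3. The groups overlapped, with means of 0.936% ± 0.0271 and 0.921% ± 0.0191 (SD, n = 3 each). Within WT the members shared an order. WT replicate 3 was the highest WT library for 8 of the 9 abundant genes, Cd3d being the exception, and it held that place for 49.01% of the 1912 genes averaging at least 100 CPM. Relative to each gene's mean over the 6 libraries, the median deviation of the 9 genes in log2 CPM was 0.021, 0.014 and 0.0056 in CD103KO replicates 1, 2 and 3. It was -0.042, -0.038 and 0.033 in WT replicates 1, 2 and 3. WT replicates 1 and 2, the libraries with Xist reads, therefore lay low for these genes and WT replicate 3 lay at the level of the CD103KO libraries or above. With a term for Xist reads the log2 fold changes of Cd3e (-0.026), Cd247 (-0.020), Cd8b1 (-0.048), Thy1 (-0.055) and Ptprc (-0.065) turned negative and that of Cd4 positive (0.051), with 0 of 10 passing. Cd3g stayed positive at 0.053 (adjusted p = 0.789, edgeR). The part of Xist state in these small differences was not tested, as WT replicate 3 is the only WT library without such reads.

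**Figure D5:**
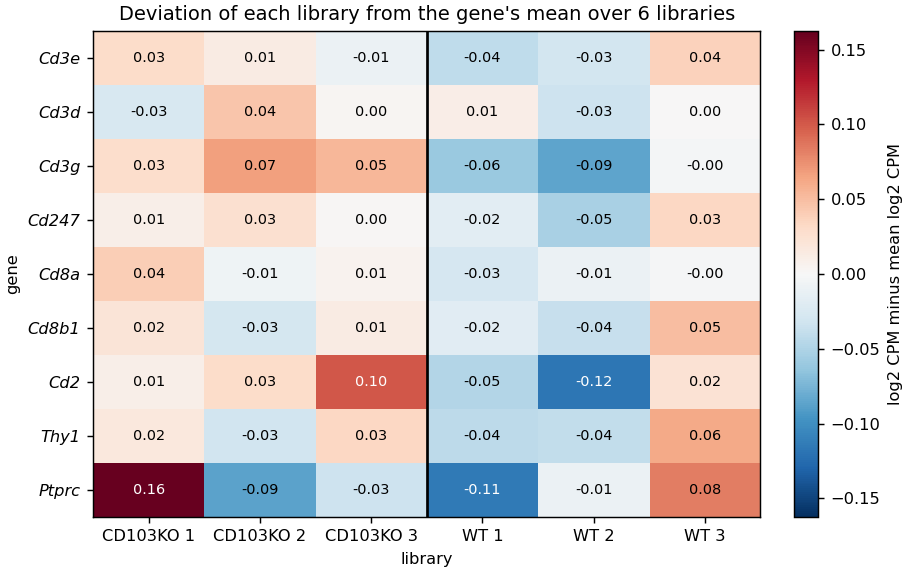
Deviation of each library's log2 CPM from the gene's mean over the 6 libraries for the 9 abundant genes, CD103KO libraries left of the line and WT right of it, with red above and blue below the mean. WT replicates 1 and 2 are mostly blue, with median deviations of -0.042 and -0.038, and the largest deviation, 0.16, belongs to Ptprc in CD103KO replicate 1.

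Likeness to a member was Pearson r of log2 CPM over the 6 libraries, among 7910 other tested genes averaging at least 10 CPM. It is given as a description, as all genes of a library share its depth and normalization. Genes most like Cd3e were Sft2d2 and Nsmce4a (r = 0.990 and 0.989), those most like Cd8a were Gtf3c2 and Tgfbrap1 (0.991 and 0.985), and those most like Cd8b1 were Gtf2h2 and Epb41l2 (0.984 and 0.982). With so many genes and 6 libraries, high values occur for unrelated genes. Other members ranked far lower for Cd3e: Cd247 was at rank 243 (r = 0.82), Cd3g at rank 943 and Cd3d at rank 3674 (r = 0.089). For Cd8a, Ptprc was the nearest member at rank 135 (r = 0.85) and its partner Cd8b1 was at rank 1237 (r = 0.51). For Cd8b1, Thy1 was the nearest member at rank 23 (r = 0.96), and Cd8a was at rank 1584.

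Genes that act with these chains were followed in 5 lists. Over all tested genes, 0.223% passed with edgeR, 1.02% with DESeq2, and 8.73% had an unadjusted p under 0.05 (edgeR). Groups did not overlap for 14.2%. Of T cell receptor constant chains and the CD3-associated adaptor Trat1, 8 of 9 were tested and 0 passed (edgeR and DESeq2), 1 having an unadjusted p under 0.05. Trac, the alpha constant region, was at 571, 533 and 559 CPM in CD103KO, against 529.9, 546 and 574 CPM in WT. Trbc2, a beta constant region, averaged 839 ± 11.5 CPM in CD103KO and 821 ± 25.9 CPM in WT, and Trbc1 averaged 373 ± 9.03 CPM in CD103KO and 363 ± 4.24 CPM in WT (SD, n = 3 each). The genes of smallest p were the gamma constant regions Tcrg-C4, at 0.38 ± 0.098 CPM in CD103KO and 0.657 ± 0.168 CPM in WT, and Tcrg-C2, at 0.395 ± 0.116 CPM in CD103KO and 0.625 ± 0.22 CPM in WT (adjusted p = 0.518 and 0.647, edgeR). The list's median log2 fold change was 0.021, against -0.0025 over all tested genes.

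Of 19 proximal kinases and adaptors, among them Lck, Zap70 and Lat, 0 passed with edgeR or DESeq2 and 1 had an unadjusted p under 0.05. The median log2 fold change was 0.0077, with 10 of 19 positive. The 2 of smallest p were Sh2d2a, a T cell adaptor that binds Lck, at 182 ± 11.4 CPM in CD103KO and 167 ± 7.07 CPM in WT, and Vav1, a guanine nucleotide exchange factor, at 207 ± 12.5 CPM in CD103KO and 191 ± 7.18 CPM in WT. Their adjusted p was 0.564 and 0.585 (edgeR).

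Of 14 regulators of Lck activity and CD45 partners, 0 passed with edgeR. At an unadjusted p under 0.05 there was 1, against 8.73% of all tested genes. DESeq2 called 1, against 1.02%, and in both cases it was Cbl. Cbl, a ubiquitin ligase that marks activated receptor chains for removal, was at 295, 289.8 and 293 CPM in CD103KO, against 251.5, 266 and 263 CPM in WT. Its groups did not overlap, and its log2 fold change of 0.17 (SE 0.037) had an adjusted p of 0.203 with edgeR and 0.0161 with DESeq2. Its relative Cblb was at 112 ± 1.46 CPM in CD103KO and 118 ± 4.002 CPM in WT (log2 fold change -0.077, adjusted p = 0.63, edgeR). The list's median log2 fold change was 0.029. Ptprcap, which binds CD45, was at 428, 435 and 447 CPM in CD103KO, against 408, 392 and 442 CPM in WT.

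Of 14 partners of CD2 and other accessory receptors, 0 passed with edgeR or DESeq2 and 1 had an unadjusted p under 0.05, with a median log2 fold change of 0.046 and 9 of 14 positive. Cd96, an adhesion and checkpoint receptor, was at 291 ± 6.96 CPM in CD103KO and 271 ± 12.9 CPM in WT, and the costimulatory receptor Cd28 at 113 ± 1.61 CPM in CD103KO and 107 ± 1.34 CPM in WT (SD, n = 3 each). Neither had overlapping groups, which makes 2 of 14 in this list, near the 14.2% of all tested genes. Neither passed (adjusted p = 0.558 and 0.607, edgeR). Of 13 CD8 and CD4 lineage regulators found, 0 passed with edgeR or DESeq2 and 0 had an unadjusted p under 0.05. Their median log2 fold change was -0.052, with Tox at 101 ± 4.55 CPM in CD103KO and 93.7 ± 3.71 CPM in WT, and Runx1, a repressor of Cd4, at 38.7 ± 3.22 CPM in CD103KO and 42.5 ± 2.54 CPM in WT.

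The defining markers of CD8 alpha beta T cells were thus high in every library. The 10 markers of that list summed to 7972 to 8241 CPM in CD103KO and 7851 to 8326 CPM in WT. They include the CD3 and CD8 chain genes described above, so this sum is not separate from the levels of the members. Marker lists of other cells summed to less, and some markers differed between the groups. B cell markers summed to 32.3 to 38.4 CPM in CD103KO and 26.03 to 29.3 CPM in WT. Of these, 3 of 10 passed upward with edgeR (Cd79a, Ms4a1 and Fcer2a), as did 0.141% of all tested genes, and DESeq2 called 6 of 10, against 1.02% of all genes. At an unadjusted p under 0.05 there were 8 of 10, all higher in CD103KO, against 8.73% of all genes, and 8 of 10 had groups that did not overlap, against 14.2%. The log2 fold change was positive for all 10 (median 1.89), and 0 were at 0 counts throughout. The most abundant, Cd79b, was at 25.5 ± 0.754 CPM in CD103KO and 25.3 ± 2.1 CPM in WT. Red cell and platelet markers summed to 57.03 to 92.0 CPM in CD103KO and 32.6 to 49.2 CPM in WT. The platelet markers added next to nothing, with Pf4 at 0 counts and Ppbp at no more than 3 in every library. The tested genes were the haemoglobin genes Hbb-bs, Hbb-bt, Hba-a1 and Hba-a2. Of the 4 tested, edgeR called 0 and DESeq2 3, against 0.223% and 1.02% of all genes, and all 4 had an unadjusted p under 0.05, against 8.73%. B cells also express Ptprc, and their part in the Ptprc values was not tested. Gamma delta T cell markers summed to 8.41 to 9.38 CPM in CD103KO and 9.56 to 10.6 CPM in WT. Most of this was Trdc, at 7.47 ± 0.462 CPM in CD103KO and 8.06 ± 0.0837 CPM in WT (adjusted p = 0.718, edgeR). Of the 4 tested, 0 passed with edgeR or DESeq2 and 1 had an unadjusted p under 0.05, against 8.73% of all genes. Groups did not overlap for 2 of the 4, against 14.2% of all genes. NK and innate-like markers summed to 290 to 312 CPM in CD103KO and 275 to 297 CPM in WT. Nkg7 made up most of these sums, at 296 ± 11.9 CPM in CD103KO and 284 ± 10.4 CPM in WT. The other tested markers of that list averaged at most 1.47 CPM in either group, the WT mean of Klrb1c. Stroma and endothelium markers summed to 127 to 167 CPM in CD103KO and 137 to 151 CPM in WT. Pecam1 made up most of these sums, at 146 ± 20.1 CPM in CD103KO and 143 ± 7.13 CPM in WT. The other tested markers, Col1a1 and Cdh5, averaged 0.428 and 0.217 CPM in CD103KO, against 0.293 and 0.407 CPM in WT. Of the 6 naive T cell markers 0 passed with edgeR or DESeq2. At an unadjusted p under 0.05 there were 2, Ccr7 and Il7r, both lower in CD103KO, against 8.73% of all genes. All 6 had negative log2 fold changes with a median of -0.10, where 48.96% of all tested genes were positive. Lists for NK and innate-like cells, myeloid and dendritic cells, and stroma had 0 members called by edgeR or DESeq2 (0, 0 and 1 at an unadjusted p under 0.05), with Cd14, Siglech and Pdpn at 0 counts in every library.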

How the data were processed

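The labels' protocols name a column kit for RNA and a stranded mRNA kit for libraries. The submitters' processing notes list bcl2fastq 2.20, cutadapt 1.18, STAR 2.7.0f, RSEM, and the builds GRCm38 and mm10. The sources used here do not give the RSEM version, annotation release or strand setting. Expected counts per gene and library, not normalized, were deposited by the authors. Of these, 6.48% were not whole, and all were rounded before testing.

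All 55450 identifiers matched GENCODE M21 (GRCm38), which gave coordinates and lengths. CD103KO was compared with WT by edgeR 4.0.16 (R 4.3.3): filterByExpr (minimum count 10), TMM, the quasi-likelihood F test with group as the only term, and a threshold of 0.05 after Benjamini-Hochberg adjustment over 13470 genes. The standard error is the log2 fold change over the square root of F. One count equals 0.0104 to 0.0147 CPM, and Poisson intervals cover counting error only. Libraries of a group differed beyond sampling noise (chi-square divided by degrees of freedom, 12.7 to 26.4). Alternatives used DESeq2 1.42.0, limma 3.58.1 and other settings, and sequence similarity BLAST+ 2.17.0. Promoter windows come from RefSeq (GRCm38.p6) and held 6 of the 10 genes. SciPy 1.17.1 and matplotlib 3.10.9 served for intervals and plots.

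The members and lists were chosen with earlier results of these data known. Named were the members, and from each pathway list the called genes or else the 2 of smallest p. Trac, Trbc1, Trbc2, Trdc, Ptprcap, Foxp3, Zbtb7b, Ikzf4, Cd79b, Klrb1c, Pecam1, Pou2f1 and Gm16565 were added after their values were seen.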

Additional observations from a re-analysis of the deposited data

How the results depend on the processing

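The count of members called stayed at 0 under all 16 alternatives: upper-quartile or RLE factors, all genes kept, genes kept at 1 CPM in 3 libraries (which left 9 members to test), DESeq2, limma-voom, unrounded counts, an adjusted p of 0.01, the replicate block, the Xist term and each library left out. Over these, the smallest adjusted p of a member was 0.253 (Cd3g). Cd3g, Cd8a and Cd2 kept their positive direction in every alternative, with Cd3g between 0.053 and 0.12. Other directions were not stable. Of 149 recomputed log2 fold changes, 19 changed sign. With the Xist term Cd3e was at -0.026, Cd247 at -0.020, Cd8b1 at -0.048, Cd4 at 0.051, Thy1 at -0.055 and Ptprc at -0.065, and Cd8b1 was at -0.0036 with upper-quartile factors. With each library left out, Cd3d ran from -0.0070 to 0.031, Cd8b1 from -0.017 to 0.030, Cd4 from -1.37 to 0.45, Thy1 from -0.0063 to 0.048 and Ptprc from -0.050 to 0.078. Log2 differences of the ratios then ran from -0.028 to 0.018 for Cd3d to Cd3e, from -0.0086 to 0.015 for Cd247 to Cd3e and from -0.016 to 0.014 for Cd8a to Cd3e, while Cd3g to Cd3e stayed positive (0.064 to 0.097) and Cd8b1 to Cd8a stayed negative (-0.041 to -0.0015). Beyond settings that use fewer samples, the cause was not tested. The labels do not say that replicate numbers mark shared animals. Same-numbered libraries deviated from their group means with correlations of -0.29, -0.075 and 0.031. Libraries of different numbers had correlations from -0.30 to 0.28. With 3 libraries per group, deviations from a group mean are tied to each other, so these values cannot show whether the numbers mark pairs. With the replicate block 0 members were called and 24 genes in all, against 30 without it. Depth limits Cd4 alone, at 5 to 58 counts.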
